A study of Mus musculus with 4 samples.

Results

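In lymph node fibroblastic reticular cells, 586 autosomal regions had little accessible DNA in control libraries and were open in libraries of the Notch2 deletion genotype. They are the regions of this account. A region was a run of deposited 300-bp windows no more than 100 bp apart, represented by its window with the most counts over the 4 libraries. Its level was its count divided by the library's total over all such windows, scaled to counts per 1e6 (CPM). The 586 regions were chosen by level alone, with both control libraries under 2 CPM and both deletion libraries at 4 CPM or more. They were taken from 110110 regions in all, of which 106512 were autosomal and 32684 were autosomal and under 2 CPM in both controls. The chosen regions were thus 1.79% of those low in control and 0.550% of the autosomal ones.

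The assay was ATAC-seq, in which a transposase places sequencing adapters into DNA that nucleosomes leave free. Fibroblastic reticular cells are the stromal cells that carry the conduit network of the lymph node and guide lymphocytes with chemokines. All cells were labelled as from 12-week-old female C57BL/6 mice homozygous for a floxed Notch2 allele (Notch2 fl/fl), sorted from brachial, axillary and inguinal nodes as BP3-high, podoplanin-positive cells lacking CD31 and CD45. The 2 libraries called Notch2_cKO also carried Ccl19-Cre, a recombinase transgene driven by sequence of the chemokine gene Ccl19, so that deletion is limited to cells with past or present activity of that driver. The 2 libraries called control were littermates labelled with the floxed allele only. Every library was a pool of 6 mice, so the spread between replicates is a spread between pools, not between animals. Totals over the representative windows were 23629588 and 25740366 counts in control 1 and 2, and 30260067 and 12340742 in Notch2_cKO 1 and 2.

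Notch receptors are cleaved when a neighbouring cell presents a ligand, and the freed intracellular part joins the DNA-binding protein RBPJ to switch on target genes. Without that signal RBPJ recruits corepressors. Regulatory elements far from genes change accessibility with cell state more readily than start sites do, because many start sites stay open in most cells.

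Library identity was examined first. At the start site of Notch2, the targeted gene, the level was 57.6 and 59.3 CPM in the controls and 54.1 and 43.9 CPM in Notch2_cKO, a difference that did not pass (adjusted p = 0.340, from edgeR's quasi-likelihood test with Benjamini-Hochberg adjustment). Which exons are floxed is not given in the labels, so this start site does not check the deletion. Control 2 held 221 counts at the Y-linked gene Ddx3y and 201 at Eif2s3y, against 0 in each of the remaining libraries, yet its label gives the sex as female. All 10 genes of the sort gate and of fibroblasts had regions, with summed levels of 1030 and 1034 CPM in control and 1036 and 1114 CPM in Notch2_cKO. In the start-site table used here, start-site regions of the fibroblast genes Col1a2, Col3a1, Pdpn and Ltbr were open in every library, at 10.2 CPM or more, while none was analysed at that of Pdgfra.

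Control levels of the chosen regions were low but not zero. In control 1 they ran from 0.169 to 1.99 CPM with a median of 1.44, and in control 2 from 0.194 to 1.98 CPM with a median of 1.38. The lowest count was 4 in control 1 and 5 in control 2, so every region had reads in both. Their median mean level in control, 1.41 CPM, lay above 22.3% of all autosomal regions. In Notch2_cKO 1 levels ran from 4.03 to 19.8 CPM with a median of 5.55, and in Notch2_cKO 2 from 4.05 to 20.3 CPM with a median of 5.43. The median mean level in Notch2_cKO, 5.43 CPM, lay above 62.1% of autosomal regions. Most of these regions therefore reached an ordinary level in the deletion genotype, with 374 of 586 under 6 CPM and 19 at 10 CPM or more in both libraries. These values chose the regions, so they are given as a description without a test.

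**Figure D1:**
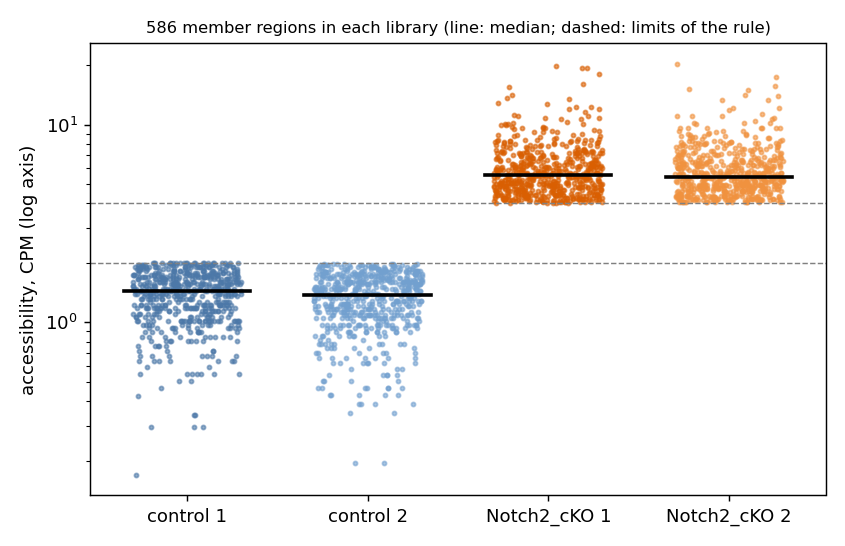
Accessibility in CPM on a log axis for the 586 regions in each of the 4 libraries. Each point is a region, black lines are medians (1.44, 1.38, 5.55 and 5.43 CPM), and dashed lines mark the limits of 2 and 4 CPM that chose the regions and keep the groups apart.

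Fold differences, mean Notch2_cKO level over mean control level, ran from 2.17 to 30.0 with a median of 4.06. They were at least 4-fold in 308 regions, at least 8-fold in 51 and under 3-fold in 86. The Notch2_cKO libraries had a median ratio of replicate 1 to replicate 2 of 1.01 and differed by over 1.5 times in 14 regions. The choice asked for 4 CPM or more in both, which favours close values, so replicate agreement is not read from these ratios. Both controls were under 1 CPM in 64 regions. All 586 were called higher in the fit over all regions (edgeR quasi-likelihood test), where 12.4% of regions were called higher and 11.3% lower (13698 and 12405). These background counts move by over 1.5 times with the tool and the libraries, to 7381 higher and 5470 lower with DESeq2, 8856 higher and 8225 lower without control 2, and 8035 lower without control 1. Because the same contrast chose the regions, nothing is read from that count.

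Just inside the control limit lay a region within Dock10 with 1.99 and 1.83 CPM in control and 5.06 and 7.05 CPM in Notch2_cKO, and one 53895 bp from Gli2 with 1.99 and 1.32 against 5.95 and 6.24 CPM. Just outside it lay a region in Adora1 with 1.52 and 2.02 CPM in control and 8.16 and 6.08 CPM in Notch2_cKO, and one near Hhat with 1.82 and 2.02 against 7.67 and 4.70 CPM. At the Notch2_cKO limit, a region with no gene within 100 kb (chr10:22504701-22505300) was just inside at 4.03 and 5.43 CPM, as was one near Slc28a3 at 4.03 and 4.13 CPM. Regions in Hivep3, at 4.00 and 4.29 CPM, and Acacb, at 4.00 and 4.13 CPM, were just outside, their first values being 3.9987 CPM before rounding.

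A library left out of the limits gave a value for each genotype, although its counts still helped pick the representative window of each region. Chosen by both controls and Notch2_cKO 2 alone, 824 regions qualified. Notch2_cKO 1 had a median of 4.86 CPM there (5th to 95th percentile 2.88 to 9.09), stood above both controls in all 824 and reached 4 CPM in 586 (71.1%). Of all 32684 regions low in control, 2.46% reached 4 CPM in that library. Chosen by both controls and Notch2_cKO 1 alone, 805 regions qualified, and Notch2_cKO 2 reached 4 CPM in 72.8% of them, against 2.52% of the regions low in control. With control 1 left out 794 regions qualified, of which 73.8% were under 2 CPM in control 1. With control 2, the library with Y-linked reads, left out 782 qualified, of which 74.9% were under 2 CPM in control 2. Regions at 4 CPM or more in both Notch2_cKO libraries were under 2 CPM in control 1 in 1.68% of 46679 cases and in control 2 in 1.70%. In each choice the left-out library lay beyond both libraries of the other genotype in every region chosen. The choice held those libraries to their limit. Regions in which the left-out library also met its limit are, by definition, the 586 themselves. All shares in this paragraph are therefore a description without a test, and replication is not read from them.

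Sequences from RefSeq (GRCm38.p6, the assembly of mm10) were at hand for the start sites that these regions cover or lie just before. Of the 586 regions, 11 overlapped an entry of the start-site table, which covered 13 genes, 6 of them protein-coding. The bases just before the start of those 6 genes are printed because the chosen regions cover them, whole in 4 genes, for 226 of 250 bases at Mefv and for 161 of 250 at Wnt5b. Each run is 250 bases long, reads 5′ to 3′ on the gene's strand and ends at the base before the start. Capitals mark matches, on either strand, to the motifs searched: TGANTCA of AP-1, TGGGAA of RBPJ, TGTGGT of RUNX, GGAATG of TEAD, the E-box CANNTG and CCGGAA of ETS factors.
Slpi (chr2:164356508-164356757, minus strand): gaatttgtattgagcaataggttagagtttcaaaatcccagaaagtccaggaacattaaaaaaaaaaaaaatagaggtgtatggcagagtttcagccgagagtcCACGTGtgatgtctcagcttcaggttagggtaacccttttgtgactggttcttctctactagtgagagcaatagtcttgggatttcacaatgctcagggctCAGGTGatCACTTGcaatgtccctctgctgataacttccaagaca
Mefv (chr16:3718125-3718374, minus strand): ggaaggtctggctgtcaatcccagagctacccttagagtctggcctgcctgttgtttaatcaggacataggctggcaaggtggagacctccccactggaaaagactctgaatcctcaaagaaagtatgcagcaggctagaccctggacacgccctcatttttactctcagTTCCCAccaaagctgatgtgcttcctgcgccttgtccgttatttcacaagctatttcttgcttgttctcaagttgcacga
Dhrs9 (chr2:69380212-69380461, plus strand): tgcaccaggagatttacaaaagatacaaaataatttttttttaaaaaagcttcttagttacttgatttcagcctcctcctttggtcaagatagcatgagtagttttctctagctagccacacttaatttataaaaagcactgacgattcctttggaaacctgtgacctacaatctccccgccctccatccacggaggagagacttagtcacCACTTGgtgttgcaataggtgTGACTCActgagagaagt
Apon (chr10:128253881-128254130, plus strand): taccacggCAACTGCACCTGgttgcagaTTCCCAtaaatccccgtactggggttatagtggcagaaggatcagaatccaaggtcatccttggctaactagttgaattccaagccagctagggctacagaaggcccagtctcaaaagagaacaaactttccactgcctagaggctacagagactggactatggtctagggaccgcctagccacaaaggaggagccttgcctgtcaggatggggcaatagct
Wnt5b (chr6:119467212-119467461, minus strand): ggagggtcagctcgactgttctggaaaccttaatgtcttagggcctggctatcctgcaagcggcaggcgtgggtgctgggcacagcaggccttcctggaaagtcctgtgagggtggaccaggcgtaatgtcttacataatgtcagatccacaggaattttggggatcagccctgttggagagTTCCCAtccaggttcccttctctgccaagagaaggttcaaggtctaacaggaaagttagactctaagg
Opcml (chr9:27791049-27791298, plus strand): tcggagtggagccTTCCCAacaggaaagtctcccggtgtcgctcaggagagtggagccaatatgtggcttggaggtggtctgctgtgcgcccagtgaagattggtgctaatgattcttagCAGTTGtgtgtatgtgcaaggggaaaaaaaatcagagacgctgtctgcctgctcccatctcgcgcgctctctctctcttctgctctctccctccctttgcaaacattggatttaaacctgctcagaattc

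At Slpi, which encodes a secreted inhibitor of leukocyte proteases, the region had 1.18 and 1.17 CPM in control and 13.5 and 13.3 CPM in Notch2_cKO (1.18 ± 0.0138 and 13.4 ± 0.114 CPM, mean ± SD, n = 2). This was an 11.4-fold difference from 28 and 30 counts in control. It covered all 250 printed bases, with E-box letters at positions -146 to -141, -45 to -40 and -37 to -32 from the start. Mefv, which encodes the inflammasome protein pyrin, had 1.74 and 1.55 CPM in control against 8.06 and 6.40 CPM. Dhrs9, which encodes a dehydrogenase acting on retinol, had 1.82 and 1.52 CPM against 5.22 and 5.51 CPM, with the AP-1 letters TGACTCA at -18 to -12. Apon, an apolipoprotein gene, had 0.846 and 1.20 CPM against 4.82 and 4.38 CPM. In the regions at all 6 genes both Notch2_cKO libraries were above both controls, as the choice requires, and Slpi stood highest.

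The region at Wnt5b, which encodes a Wnt ligand, lay just before a start site inside the gene, without covering the start itself. It had 1.10 and 1.09 CPM in control against 4.13 and 4.62 CPM in Notch2_cKO. Other start-site regions of Wnt5b, open in both genotypes, had mean levels of 4.94 and 4.57 CPM in control and 5.37 and 5.82 CPM in Notch2_cKO and did not pass (edgeR adjusted p = 0.817 and 0.376). Opcml, which encodes a neural adhesion molecule, had 1.86 and 1.71 CPM against 4.76 and 4.13 CPM. The letters TGGGAA or their complement stood in 4 of the 6 printed runs, those of Mefv, Apon, Wnt5b and Opcml, and in 21.7% of 31396 autosomal entries cut to the same length. At Wnt5b the match lay outside the chosen region. E-box letters stood in 4 of the 6, against 66.1% of entries, and AP-1 letters in 1 of the 6, against 6.77%. Letters of RUNX, TEAD and ETS factors were in none of the 6 windows, against 14.0%, 12.5% and 12.2%. These shares are over coding and non-coding entries alike. Over all 14 overlapped entries, counted the same way, RBPJ letters were in 6, E-box letters in 10, TEAD letters in 3, AP-1 and RUNX letters in 1 each and ETS letters in 0. Some of these entries overlap, so a site can be counted more than once. The RBPJ letters of Wnt5b and of the non-coding Gm40397 are the same bases. At the non-coding Gm14051 the RBPJ match also lay outside the chosen region. These counts are therefore not compared with the shares over all entries. A match is letters in a window and does not show that a factor bound there.

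Another of the regions reached the microRNA gene Mir1960 (chr5:30170201-30170800, with 1.57 and 1.75 CPM in control and 4.56 and 4.05 CPM in Notch2_cKO). Its mature product, shown with the seed in capitals because the region covers it, has the sequence below.
mmu-miR-1960: cCAGUGCUguuagaagagggcu

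Regions at gene ends, counted at either end of a gene and so not at start sites alone, were few among the 586. Within 1000 bp of either end of a protein-coding gene lay 18 of 586 (3.07%, exact 95% interval 1.83 to 4.81), against 12.2% of all autosomal regions and 3.31% of the 32684 low in control. The share at gene ends was thus near that of other regions low in control. Inside genes and farther from an end lay 237 (40.4%), against 44.8% of regions low in control. No gene lay within 100 kb of 108 regions (18.4%, 15.4 to 21.8), against 16.3% of regions low in control and 13.2% of all autosomal regions. The median distance to a gene end was 37714 bp for the chosen regions, 29605 bp for those low in control and 22185 bp for all autosomal regions. Intervals cover counting error only, and neighbouring regions are not independent.

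**Figure D2:**
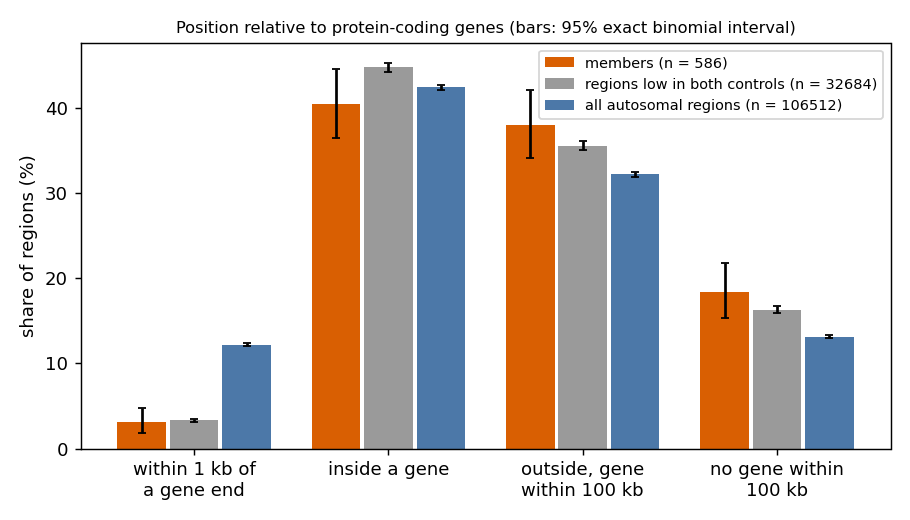
Share of regions in percent by position relative to protein-coding genes, for the 586 chosen regions (members), the 32684 regions low in both controls and all 106512 autosomal regions, with exact 95% binomial intervals. The chosen regions and those low in control sit close together at gene ends (3.07% and 3.31%), below the 12.2% of all autosomal regions.

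At gene ends the highest level was near Olfr70, an olfactory receptor gene, 1000 bp away, with 1.52 and 1.59 CPM in control and 16.0 and 13.3 CPM in Notch2_cKO. Slpi followed. Alppl2, an alkaline phosphatase gene, had 1.74 and 1.79 CPM in control against 8.33 and 6.56 CPM. Slc25a47, a mitochondrial carrier gene, had 1.90 and 1.71 CPM against 8.29 and 6.00 CPM, and the transcription factor gene Sp6 had 1.86 and 1.75 CPM against 6.48 and 5.02 CPM. The protease gene Prss22 had 1.31 and 1.36 CPM against 5.72 and 5.59 CPM. The other gene-end regions lay at Mefv, Vxn, Hdac4, Skap1, Dhrs9, Cmklr1, Fcgr4, Tgfb3, Dgkq, Apon, Extl1 and Opcml. Of the 18, Tgfb3 had the lowest mean level in control, with 0.635 and 0.388 CPM.

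The highest level in Notch2_cKO was reached by a region with no protein-coding gene within 100 kb (chr12:77633801-77634450), at 1.02 and 0.894 CPM in control and 19.3 and 20.3 CPM in Notch2_cKO, a 20.7-fold difference. Next came a region 3800 bp from Myoc, which encodes the secreted matrix protein myocilin, at 1.02 and 1.59 CPM against 19.8 and 17.3 CPM (chr1:162635151-162635750). A region 96055 bp from Adamts15, which encodes a proteoglycan-cleaving metalloprotease, had 0.973 and 1.09 CPM in control against 19.4 and 15.2 CPM (chr9:30802801-30803350). Control counts behind these 3 regions ran from 23 to 41, against 187 to 598 in Notch2_cKO.

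A region 18745 bp from Pank3, a kinase gene of coenzyme A synthesis, had 0.973 and 1.24 CPM in control against 17.9 and 15.7 CPM. Inside Skint6, of an immunoglobulin-like family known from skin and thymus, levels were 1.10 and 1.24 CPM against 13.7 and 14.2 CPM. A second region without a gene within 100 kb (chr4:16739651-16740300) was nearly at the control limit, with 1.99 and 1.86 CPM, and had 12.2 and 14.9 CPM in Notch2_cKO. The rest of the 12 highest lay 69673 bp from Ptp4a1, 70886 bp from Zfp703, 4083 bp from Plekhg5 and inside Gabrb1, besides Olfr70 and Slpi above. Of these, the region near Plekhg5 differed most between replicates, with 15.4 and 10.4 CPM in Notch2_cKO and 1.44 and 1.48 CPM in control.

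**Figure D3:**
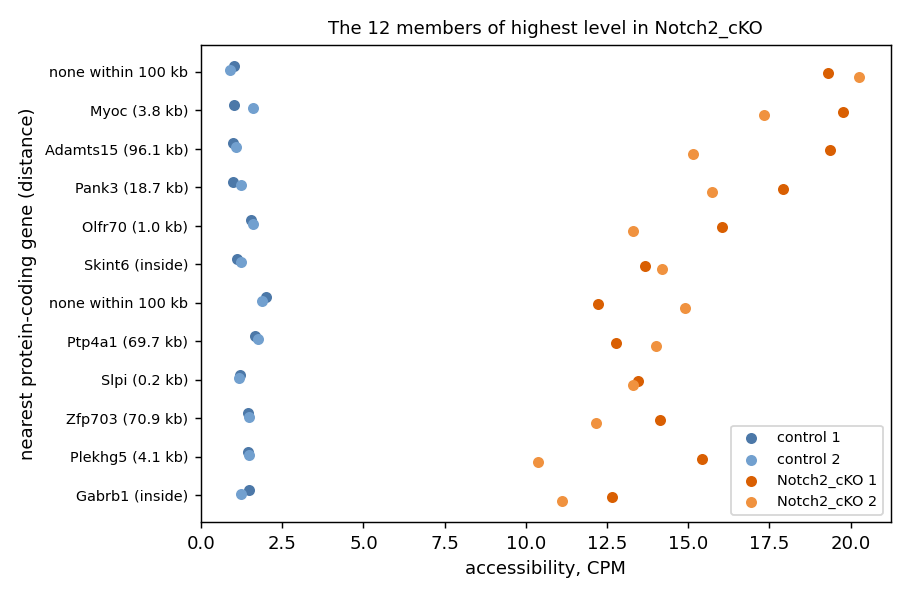
Accessibility in CPM of the 12 chosen regions (members) with the highest mean level in Notch2_cKO, named by the nearest protein-coding gene. Points are single libraries, with every control point under 2 CPM and every Notch2_cKO point above 10 CPM.

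The largest fold difference, 30.0, belonged to a region with no gene within 100 kb (chr2:9285851-9286450), with 7 and 5 counts in control (0.296 and 0.194 CPM) and 7.11 and 7.62 CPM in Notch2_cKO. A region inside Mtss1, which encodes an actin-binding membrane protein, differed 29.5-fold, from 4 and 5 counts in control (0.169 and 0.194 CPM) to 5.68 and 5.02 CPM. With so few control counts these folds are imprecise. A region 62735 bp from Reg3b, an antimicrobial lectin gene, differed 15.9-fold, with 0.339 and 0.427 CPM against 5.68 and 6.48 CPM. One 58378 bp from the GTPase gene Rab10 differed 14.9-fold, with 0.550 and 0.544 CPM against 9.62 and 6.64 CPM. The other large folds were at Sfrp1, described next, and at 3 of the highest regions above.

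Wnt signalling genes, fixed as a list of 49, had 5 chosen regions among 489, or 3.03% of their 165 regions low in control, against 1.75% over all genes. Of the 5, 3 lay near Sfrp1, whose product binds and blocks secreted Wnt proteins. The region 30068 bp away (chr8:23479401-23480000) had 0.550 and 0.388 CPM in control and 11.5 and 12.1 CPM in Notch2_cKO, a 25.2-fold difference. Its neighbour at 28318 bp had 1.82 and 1.48 CPM against 7.90 and 5.35 CPM, and the one at 20618 bp had 1.14 and 1.40 CPM against 5.65 and 4.13 CPM. Another was that of Wnt5b given above, and the last lay inside Apcdd1, which encodes a membrane inhibitor of Wnt signalling, at 1.44 and 1.75 CPM against 6.54 and 5.67 CPM. Over all 489 regions of the list 84 were called higher (17.2%) and 40 lower, with a median log2 change of 0.11. Over all regions with a gene within 100 kb the median was 0.02 and 12.4% were called higher. Of all 110110 regions 11.3% were called lower.

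Genes of BMP and TGF-beta signalling had 5 chosen regions among 579, each at another gene. They were 3.18% of the list's regions low in control, against 1.75% over all genes. Within Tgfb3, a ligand gene, 507 bp from an end, levels were 0.635 and 0.388 CPM in control and 4.49 and 5.11 CPM in Notch2_cKO, a 9.38-fold difference. Near Smad6, which encodes an inhibitory Smad, they were 1.40 and 1.55 CPM against 6.11 and 4.70 CPM. Inside Tgfbr3, the gene of the coreceptor betaglycan, they were 0.635 and 1.48 CPM against 5.58 and 5.19 CPM. The others lay inside Ltbp1, which encodes a protein that stores latent TGF-beta, and Bmper, which encodes a BMP-binding protein. Over the list 80 regions were called higher (13.8%) and 63 of 579 lower, with a median log2 change of 0.02. The share called higher was near the 12.4% over all regions with a gene. Of all regions 11.3% were called lower.

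Extracellular matrix genes, a long list, had the most chosen regions by count, 9 among 1193, each at another gene. As a share these were 2.62% of the list's 344 regions low in control, against 1.75% over all genes. That share was below those of the Wnt list (3.03%) and the BMP and TGF-beta list (3.18%). Besides Adamts15, a region 4760 bp from Fbln2, the fibulin-2 gene, had 1.48 and 1.28 CPM in control against 8.13 and 7.94 CPM in Notch2_cKO. A region inside Adamtsl1, which encodes an ADAMTS-like matrix protein, had 1.82 and 1.28 CPM against 6.08 and 7.21 CPM. Levels near Tnr, the tenascin-R gene, were 0.550 and 0.466 CPM against 8.23 and 4.94 CPM, so the Notch2_cKO libraries there were well apart. The remaining 5 lay at Col23a1, Adamts2, Mmp16, Nid2 and Lama5, at 3.02-fold to 10.5-fold. Of the list's regions 220 were called higher (18.4%) and 144 lower, with a median log2 change of 0.07. Beside this, 12.4% of all regions with a gene were called higher, and 11.3% of all regions lower.

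Among 1314 regions of mesenchymal transcription factors 7 were chosen, 1.86% of those low in control and close to the 1.75% over all genes. Inside Runx2, which encodes a factor of bone and cartilage formation, the region had 0.296 and 0.544 CPM in control against 5.45 and 5.35 CPM in Notch2_cKO, 12.9-fold. Near Prrx1, a homeobox gene of limb mesenchyme, levels were 1.74 and 1.83 CPM against 6.58 and 7.54 CPM. The Hedgehog effector gene Gli2 had 2 regions, 53895 and 68795 bp away, at 3.68-fold and 4.11-fold. Single regions lay near Tbx18 (1.69 and 1.63 CPM against 6.35 and 5.27 CPM) and inside Nfia and Zfhx3. Of the list's regions 177 were called higher (13.5%, near the 12.4% over all regions with a gene) and 132 lower. Of all regions 11.3% were called lower.

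Axon guidance genes had 5 chosen regions among 833 (2.29% of those low in control, against 1.75% over all genes). Inside Ntn1, the gene of the guidance protein netrin-1, levels were 1.57 and 1.71 CPM in control against 11.9 and 10.0 CPM in Notch2_cKO. Near Slit3, which encodes a ligand of Robo receptors, they were 1.82 and 1.83 CPM against 10.8 and 8.83 CPM. Near the semaphorin gene Sema3c, also a marker of adventitial fibroblasts, they were 1.14 and 1.20 CPM against 5.68 and 8.59 CPM. Robo1 and Sema4d had 1 region each. Over the list 111 regions were called higher (13.3%) and more, 137 of 833, lower, with a median log2 change of -0.03. The share called higher was near the 12.4% over all regions with a gene. Of all regions 11.3% were called lower.

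Lists of lymph node stromal states and of lipid genes held 0 to 2 of the regions each. Where any was held, the share of the list's regions low in control lay above the 1.75% over all genes, from 2.74% to 3.70%, on counts of 1 or 2. Adventitial and progenitor fibroblast genes had 2 among 291 (2.82% of those low in control), at Sema3c and inside Fbn1, the fibrillin-1 gene (0.550 and 0.583 CPM against 4.40 and 5.51 CPM). Of the 291, 78 were called higher (26.8%) and 29 lower. Beside these calls and those of the next lists, 12.4% of all regions with a gene were called higher, and 11.3% of all regions lower. Medullary reticular cell genes had 1 among 106 (3.23%), 48039 bp from the chemokine gene Cxcl14 (1.99 and 1.52 CPM against 5.25 and 4.62 CPM), with 26 called higher (24.5%) and 4 lower. The B-zone list, which also covers marginal reticular and follicular dendritic cells, had 1 among 97 (3.70%), near Enpp2, the autotaxin gene, which had the smallest fold of all 586 (2.17). T-zone reticular cell genes had 0 among 92, of which 13 were called higher (14.1%) and 10 lower. Lipid and adipogenic genes had 2 among 320 (2.74%), inside Elovl6, a fatty acid elongase gene, and near Zfp521, a regulator of fat cell formation, with 46 called higher (14.4%) and 44 lower.

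Notch pathway and target genes had 0 chosen regions among 295, although 70 of those were low in both controls. Of the 295, 24 were called higher (8.14%) and 58 lower, with a median log2 change of -0.06. Over all regions with a gene 12.4% were called higher, and 11.3% of all regions were called lower. AP-1 and other stimulus-response factors likewise had 0 among 177, 44 of them low in control, with 21 called higher (11.9%) and 16 lower. At the rate over all genes, 1.75% of regions low in control, counts of 0 in lists of this size are near what the background holds.

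Markers of other cell types were measured beside the chosen regions, since in sorted pools more cells of another type and more open DNA per cell cannot be told apart. In all 4 regions were chosen on these lists. For blood endothelium 1 of 33 regions low in control was chosen (3.03%), and for pericytes and smooth muscle 1 of 27 (3.70%). For Schwann and neural cells it was 2 of 31 (6.45%), beside 1.75% over all genes. That share was the highest of any list, on 2 regions of 1 gene. Near Tek, an angiopoietin receptor gene of endothelium, levels were 1.18 and 0.894 CPM in control against 5.62 and 4.94 CPM in Notch2_cKO. Inside Rgs5, a pericyte gene, they were 1.74 and 1.98 CPM against 5.58 and 4.70 CPM. Inside Mbp, the myelin basic protein gene, 1 region had 1.35 and 1.52 CPM against 7.70 and 7.78 CPM, and another had 1.99 and 1.48 CPM against 4.82 and 6.32 CPM. No region was chosen at markers of B cells (83 regions), T and NK cells (44), myeloid and dendritic cells (48), lymphatic endothelium (54), adipocytes (34) or epithelium (61), nor at the 110 regions of the gate and fibroblast list. Start sites of the leukocyte lists were mixed. No region analysed here lay at those of Ptprc, Cd79a, Cd3e or Lyz2, whereas those of Ebf1, Mertk, Tcf7, Bcl11b, Flt3, Fcrla and Cd68 had one. The start-site region of Cd68, a macrophage gene, was called higher, with 1.78 and 2.14 CPM in control against 3.50 and 3.00 CPM in Notch2_cKO (edgeR adjusted p = 0.0375). That of Mertk, a receptor gene of phagocytes, was called lower, with 31.8 and 31.2 CPM against 21.9 and 23.7 CPM (edgeR adjusted p = 0.00471). The remaining 5 were not called, at levels from 0.762 CPM at Fcrla in control 1 to 31.4 CPM at Ebf1 in Notch2_cKO 1.

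Summed levels of the blood endothelial list, with regions at 12 of 12 genes, were 584 to 601 CPM in control and 689 to 711 CPM in Notch2_cKO. Of its 114 regions 19 were called higher (16.7%) and 11 lower. Beside the calls of this and the following lists, 12.4% of all regions with a gene were called higher, and 11.3% of all regions lower. The start-site region of Tek itself was called higher, at 15.2 and 14.0 CPM against 24.3 and 26.5 CPM (edgeR adjusted p = 0.000305), whereas those of Kdr, Flt1, Erg and Egfl7 did not pass (edgeR adjusted p from 0.461 to 0.879). The pericyte and smooth muscle list (14 of 14 genes) summed to 932 to 935 CPM against 875 to 926 CPM, with 8 called higher (7.48%) and 19 lower. On that list the start-site regions of Ednra, Notch3 and Acta2 were called lower (edgeR adjusted p = 0.000129, 0.00150 and 0.0253). Those of Rgs5, Des, Cspg4, Kcnj8 and Cnn1 did not pass (edgeR adjusted p from 0.0694 to 0.961). The Schwann and neural list (10 of 12 genes) summed to 595 to 609 CPM against 638 to 645 CPM, with 14 higher (15.1%) and 12 lower. On it the start-site regions of Ngfr and Elavl4 did not pass (edgeR adjusted p = 0.119 and 0.574). Sums were 361 to 373 against 381 to 382 CPM for B cells (7 of 10 genes, 8 higher and 11 lower), and 341 to 342 against 337 to 353 CPM for T and NK cells (11 of 12 genes, 6 higher and 3 lower). They were 274 to 282 against 268 to 280 CPM for myeloid cells (12 of 13 genes, 5 higher and 5 lower), and 321 to 324 against 293 to 308 CPM for lymphatic endothelium (7 of 8 genes, 0 higher and 8 lower). Adipocyte genes (6 of 7) summed to 383 to 395 against 373 to 375 CPM with 2 higher and 3 lower, and epithelial genes (9 of 9) to 293 to 294 against 281 to 311 CPM with 4 higher and 9 lower. The part of other cell types in the 586 regions was not tested.

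Across the genome the regions were scattered. They took 2.78% of the regions low in control on chromosome 9, the highest share (51 of 1834), and 0.880% on chromosome 19, the lowest (10 of 1137). The 478 regions with a gene within 100 kb were assigned to 441 genes, of which 406 had 1 region, 33 had 2 and 2 had 3, so no gene reached the 4 that would have named it. The 2 genes with 3 regions, named after their values were seen, were Sfrp1 and Vxn, a gene of neural differentiation. The Vxn regions had 0.635 and 0.505, 1.23 and 1.24, and 1.18 and 1.09 CPM in control. In Notch2_cKO the same regions had 5.16 and 6.00, 9.75 and 9.64, and 7.17 and 5.59 CPM. Another chosen region lay within 10000 bp for 24 of the 586 (4.10%), and within 100000 bp for 90 (15.4%).

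Levels across the regions were read from neighbouring windows. Medians at the centre were 1.44 and 1.38 CPM in control and 5.55 and 5.43 CPM in Notch2_cKO. With the window moved by 150 bp to one side, where 390 regions still had a deposited window, they were 1.18 and 1.13 CPM against 4.59 and 4.62 CPM. Windows so moved share bases with the one that chose the region, so these values do not test how far the difference extends. Up to 200 bp to either side, all 4 medians were highest at the centre, as choosing the window with the most counts favours. The regions had a median width of 600 bp, the same as all autosomal regions, against 500 bp for those low in control.

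**Figure D4:**
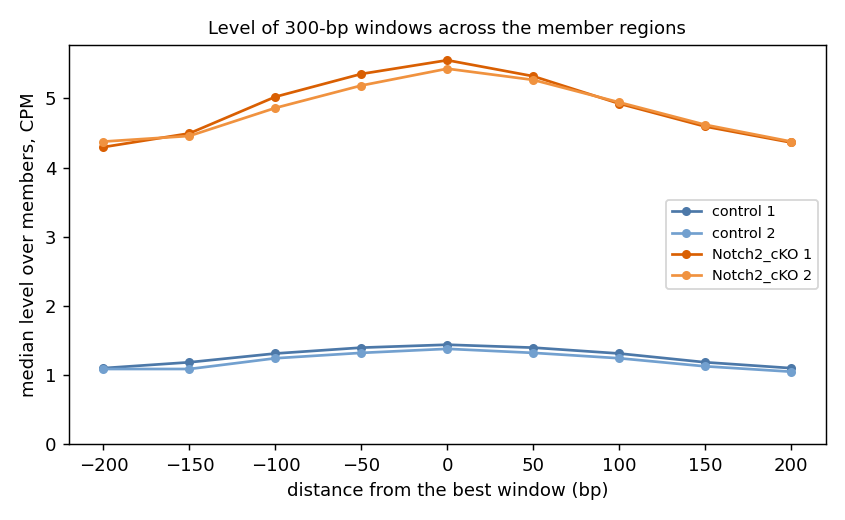
Median level in CPM of 300-bp windows across the 586 chosen regions (members), by distance in bp from the representative window, for each library. Both Notch2_cKO lines lie above both control lines up to 200 bp to either side, the range drawn, where windows overlap the one that chose the region, and medians away from 0 are over the regions that still have a deposited window there.

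Regions near the chosen ones, themselves not chosen, were more often called higher than regions far from any. At 1000 to 2500 bp, 52 of 120 (43.3%) were called higher and 3 (2.5%) lower (edgeR, Benjamini-Hochberg adjusted p under 0.05), and their median log2 change was 0.45. The share called higher was 34.4% of 209 regions at 2500 to 5000 bp, 27.4% of 441 at 5000 to 10000 bp and 22.9% of 1175 at 10000 to 25000 bp. It was 16.1% of 3138 regions at 50000 to 100000 bp and 11.6% of 99112 beyond 100000 bp, where 11.6% were called lower as well. Over all autosomal regions that were not chosen, 12.1% were called higher and 11.3% lower. The same contrast chose the regions from which distance was counted, so these shares are a description.

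**Figure D5:**
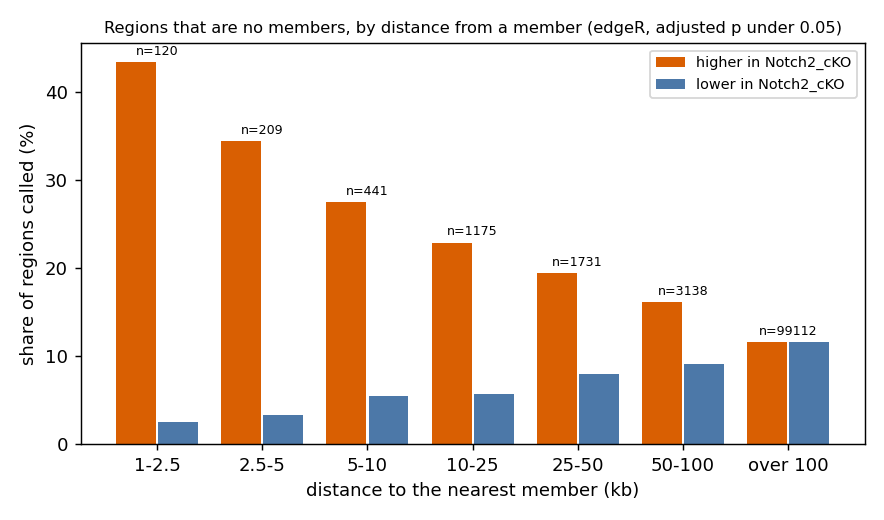
Share in percent of autosomal regions called higher or lower in Notch2_cKO (edgeR), for regions that were not chosen, by distance in kb from the nearest chosen region (member). The share called higher falls from 43.3% to 11.6% with distance, while the share called lower runs from 2.5% to 11.6%.

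Start sites of the genes to which the regions were assigned were examined last. Of 441 genes, 262 had a region within 1000 bp of a start site that was not itself chosen, giving 285 regions. Of these 35 were called higher (12.3%) and 6 lower (2.11%), beside 5.17% and 3.65% of 10100 start-site regions of all protein-coding genes. The same contrast chose the regions that picked these genes, and regions near chosen ones were more often called higher, so these shares are a description. Most of the 285 did not pass, and their median log2 change was 0.06. The start site of Cxcl14 went from 3.15 to 11.2 CPM in mean level (log2 1.78, edgeR adjusted p = 3.34e-06), and that of Fbln2 from 11.5 to 18.8 CPM (log2 0.63, edgeR adjusted p = 0.00215). At Runx2 a start site went from 1.72 to 3.21 CPM (log2 0.78, edgeR adjusted p = 0.0178), and at Sema3c from 43.6 to 53.2 CPM (log2 0.38, edgeR adjusted p = 0.0146). Ltbp1 had 2 start-site regions. One was called lower, from 30.9 to 22.1 CPM (log2 -0.50, edgeR adjusted p = 0.00379), and the other, at 28.9 and 36.3 CPM, did not pass (log2 0.34, edgeR adjusted p = 0.0557). At Gli2, Prrx1, Pank3 and Bmper the start sites did not pass (edgeR adjusted p from 0.0613 to 0.395). Genes were assigned by nearness, and which gene, if any, a region serves was not tested.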

How the data were processed

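ATAC-seq libraries of 2 control and 2 Notch2_cKO pools were compared. Build mm10, the trimmers cutadapt and Trim Galore (0.6.7), the aligner Bowtie2 (2.4.5), and deepTools, Picard (2.27.5) and SAMtools (1.14) come from the submitters' processing notes. Counts in 678058 windows, 678048 of them of 300 bp, make up the deposited table. Per the labels they are loess-normalized in csaw, but the column totals run from 80428121 to 196562399 and no whole number from 10 to 600 is absent from any column, so they were used as counts. The window filter, the peak caller and any read shift for the transposase were not given in the sources used here.

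Regions were merged at 100 bp, and CPM used the totals of representative windows. edgeR 4.0.16 in R 4.3.3 fitted genotype over all 110110 regions with loess offsets (limma 3.58.1) and no replicate term, with Benjamini-Hochberg adjustment at 0.05. The fit was tested on simulated counts. Alternatives used TMM, library totals, DESeq2 1.42.0, other limits and merging, and each library left out. Same-numbered libraries had a correlation of deviations of -0.18, so replicate numbers were not taken as pairs. Genes were 21900 protein-coding entries of a RefSeq table of GRCm38.p6, and a region took the gene its midpoint overlaps or else the nearest within 100 kb. Named were the 12 highest regions, the 8 of largest fold, the 8 highest at gene ends, up to 3 per list, genes with 4 or more regions, and those at the limits. The regions, the gene lists and the limits were chosen with earlier results of these data known. Sequences at distal regions were not analysed here.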

Additional observations from a re-analysis of the deposited data

Results flagged for a closer look

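Chromosome X was outside the choice of regions, and 4 regions there met the same limits, under 2 CPM in both controls and at 4 CPM or more in both Notch2_cKO libraries. A region inside Lancl3 had 0.719 and 0.622 CPM in control and 5.75 and 6.16 CPM in Notch2_cKO. Col4a6, which encodes a chain of basement membrane collagen, held 2 of them, with 1.65 and 1.44 CPM against 5.19 and 5.35 CPM, and 1.35 and 1.05 CPM against 6.08 and 6.81 CPM. Scml2 held the fourth, with 1.23 and 1.36 CPM against 7.17 and 5.43 CPM. The limits held both controls under 2 CPM, so these values do not bear on the Y-linked reads of control 2.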

How the results depend on the processing

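The number of regions followed its limits: 64 qualified with controls under 1 CPM and 47 with Notch2_cKO at 8 CPM or more, with median log2 ratios of 3.01 and 2.82 in place of 2.02. TMM scaling gave 533 regions and loess offsets 470, all among the 586. The mean over all windows of a region gave 567, of which 504 were among the 586. Leaving out 1 library gave 782 to 824 regions, which held all 586, with median log2 ratios of 1.92 to 2.01, gene-end shares of 2.67% to 2.98% and shares without a gene within 100 kb of 18.1% to 18.4%. The gene-end share was 1.56% with controls under 1 CPM and 6.14% within 2500 bp, and 27.3% had no gene within 50 kb. Over all regions, DESeq2 called 7381 higher and 5470 lower against 13698 and 12405 with edgeR, and leaving out 1 library gave 8856 to 15579 higher (lowest without control replicate 2) and 8035 to 14677 lower (lowest without control replicate 1). With the replicate number as a replicate block edgeR called 12211 higher and 10946 lower, and with crossed numbers, an alternative chosen after seeing the data, 18065 and 16893. With library totals alone 16204 were higher and 10849 lower, a larger share of higher calls, while the median log2 change of all regions was 0.05. With 1 library left out, the remaining one was taken to vary as the opposite group does. At the depth of Notch2_cKO 2 the limit of 4 CPM equals 49.4 counts, and in control 1 that of 2 CPM equals 47.3.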

Other observations

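Some of the regions lay in pairs within 10000 bp of each other. The pairs named here were picked after their values were seen, share no fixed list and carry no test. At Slc6a2, the noradrenaline transporter gene, 1 region had 1.06 and 0.777 CPM in control and 7.50 and 8.51 CPM in Notch2_cKO, and another 1.31 and 0.894 CPM against 5.19 and 7.05 CPM. Near Drd2, a dopamine receptor gene, 1 region had 1.06 and 1.13 CPM against 8.82 and 7.94 CPM, and the next 0.296 and 0.971 CPM against 8.13 and 7.86 CPM. Inside Gabrb1, a GABA receptor subunit gene, the second region had 1.40 and 1.90 CPM against 8.23 and 7.05 CPM. Other pairs were assigned to Dtl, Stard13, Emp1, Aopep, Arsb, Cdh8, Sfrp1 and Vxn. Of the start sites measured, those of Stard13 (13.1 to 21.0 CPM in mean level) and Emp1 (18.9 to 29.3 CPM) were called higher (edgeR adjusted p = 0.00274 and 0.00511). Those of Dtl (70.0 to 57.6 CPM), Gabrb1 (8.19 to 10.2 CPM), Arsb (39.0 to 38.4 CPM) and Aopep (15.5 to 16.7 CPM) did not pass (edgeR adjusted p from 0.255 to 0.911).

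The opposite choice, both Notch2_cKO libraries under 2 CPM and both controls at 4 CPM or more, held 194 regions, and 28.9% of them had no gene within 100 kb, against 18.4% of the 586.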
